A study of Mus musculus with 9 samples.

Results

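The genes of mitochondrial and peroxisomal fatty acid oxidation were followed in mouse macrophages that had been fed spinal cord lipid and treated with inhibitors of mTOR, a kinase that sets cell growth by nutrient supply. The set holds 33 genes named by their place in the pathway, from the carnitine shuttle to the peroxisomal thiolases, and all 33 were found by symbol among the 53342 genes of the count table. By organelle, 20 encode mitochondrial proteins, 9 encode peroxisomal proteins, and 4 (Eci2, Crat, Mlycd and Acot1) encode proteins that work in both organelles or in neither. All 33 passed the filter on low counts and were tested. The weakest, Etfb, had 6 to 30 counts per library.

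Fatty acids burned in mitochondria are first joined to carnitine by Cpt1a at the outer membrane, carried across the inner membrane by Slc25a20 and handed back to coenzyme A by Cpt2. Each round of beta-oxidation then dehydrogenates, hydrates, dehydrogenates again and cleaves the acyl chain, and electrons from the first step pass through the electron transfer flavoprotein to ubiquinone. Peroxisomes run a similar cycle on very long, branched and unusual chains, with oxidases that make hydrogen peroxide in place of the first dehydrogenases, and export the shortened products as carnitine esters. Macrophages that engulf myelin take up large amounts of lipid, which they can store in droplets, export or oxidise.

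Bone-marrow-derived macrophages are cells grown in culture from marrow precursors, here of wild-type C57BL/6J mice of both sexes, 8 to 12 weeks old. All 3 groups received homogenate of pooled spinal cords (C57BL/6 mice, 8 to 20 weeks old, meninges taken off) at 1% weight per volume, or 10 mg per mL, for 24 h. It was preceded by 2 h with vehicle, with rapamycin (which inhibits the mTOR complex mTORC1) or with Torin-2 (which blocks the ATP site of mTOR itself), and vehicle or compound stayed in the well. Each group held 3 biological replicates, since bones of different animals were kept apart. Per the series design, Torin-2 lowered lipid droplet content, and rapamycin, which did not, served as the control for inhibition of mTORC1. Doses of rapamycin and Torin-2 were not found in the labels, and no group without homogenate was analysed here.

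The 9 libraries held 16116666 to 24044329 counts, and levels are given below as CPM, the usual scale of counts relative to a library's total, here corrected by edgeR's TMM factor, with SD over 3 libraries. All 10 macrophage markers had counts, and their summed level was 14330 ± 2309 CPM with vehicle, 20380 ± 962 CPM with rapamycin and 16300 ± 916 CPM with Torin-2. Lyz2 made up most of this sum, at 9752, 14930 and 11710 CPM in that order. The markers did not move together. At the threshold given below, 6 were higher and 3 lower with rapamycin, and 4 were higher and 3 lower with Torin-2. Markers of other cell types were counted too: 8 oligodendrocyte markers summed to 546 ± 66.6 CPM with vehicle, 782 ± 80.1 CPM with rapamycin and 403 ± 31.7 CPM with Torin-2. Mbp made up most of that sum (418, 613 and 327 CPM). With rapamycin Cnp was lower (log2 fold change -0.55), while 3 others of the list were higher. The 6 astrocyte markers summed to 52.6 ± 7.16, 52.2 ± 13.8 and 29.7 ± 2.79 CPM in the same order. The 6 neuron markers summed to 8.32 ± 2.19, 10.8 ± 1.15 and 6.07 ± 1.00 CPM, and the 6 fibroblast markers to 24.8 ± 14.6, 48.1 ± 33.3 and 5.43 ± 2.65 CPM. Vehicle (37.8, 27.6 and 8.95 CPM) and rapamycin (78.2, 53.9 and 12.3 CPM) overlapped in the fibroblast sum, and replicate 3 was the lowest of each group. Each of these lists had all members above 0 in some library. Of 5 lymphocyte markers 2 were at 0 in all libraries and the sum was at most 0.214 CPM, while of 5 neutrophil markers 3 were at 0 (Ly6g, Mpo and S100a9) and the sum was at most 4.89 CPM. The part of these other RNAs in the results that follow was not tested. In bulk RNA, fewer cells of a type and less RNA per cell cannot be told apart.

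Torin-2 against vehicle asks how these genes differed under the treatment that lowered lipid droplets. Most enzymes of the cycle fell in both organelles, but Cpt1a, the gate to mitochondrial oxidation, rose, as did the acyl-CoA thioesterases Acot1 and Acot2, the medium-chain dehydrogenase Acadm, the peroxisomal oxidase Acox3 and the peroxisomal reductase Decr2. With a threshold of 0.05 on the adjusted p (edgeR's quasi-likelihood test, Benjamini-Hochberg over all genes), 24 of the 33 were lower, 6 were higher and 3 (Eci1, Mlycd and Abcd3) did not pass. The background was broad: 65.4% of the 12511 genes tested were called, 32.9% as lower and 32.5% as higher. The median log2 fold change was -0.53 over the 33 genes and -0.01 over all genes tested.

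Rapamycin against vehicle sets the same genes under the control compound. Here 21 of the 33 genes were lower, 2 (Cpt1a and Acot1) were higher and 10 did not pass, with a median log2 fold change of -0.27 against 0.00 over all genes. Of all genes tested 50.8% were called, 26.2% lower and 24.6% higher. That even split depends on the scaling: 48.5% of the called genes were higher with TMM factors, and 37.4% were with library totals alone. Both comparisons share the vehicle libraries, so their values are given side by side below and not counted as separate evidence.

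In Torin-2 against rapamycin, 13 of the 33 genes were lower with Torin-2, 7 were higher and 13 did not pass, where 48.2% of all genes were called, 24.1% lower and 24.2% higher. The 3 libraries of one group lay wholly apart from those of the other for 31 of the 33 genes in Torin-2 against vehicle (70.2% of all genes tested), for 24 in rapamycin against vehicle (57.5%) and for 22 in Torin-2 against rapamycin (57.2%). The plot of every library shows how tight most genes were.

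**Figure D1:**
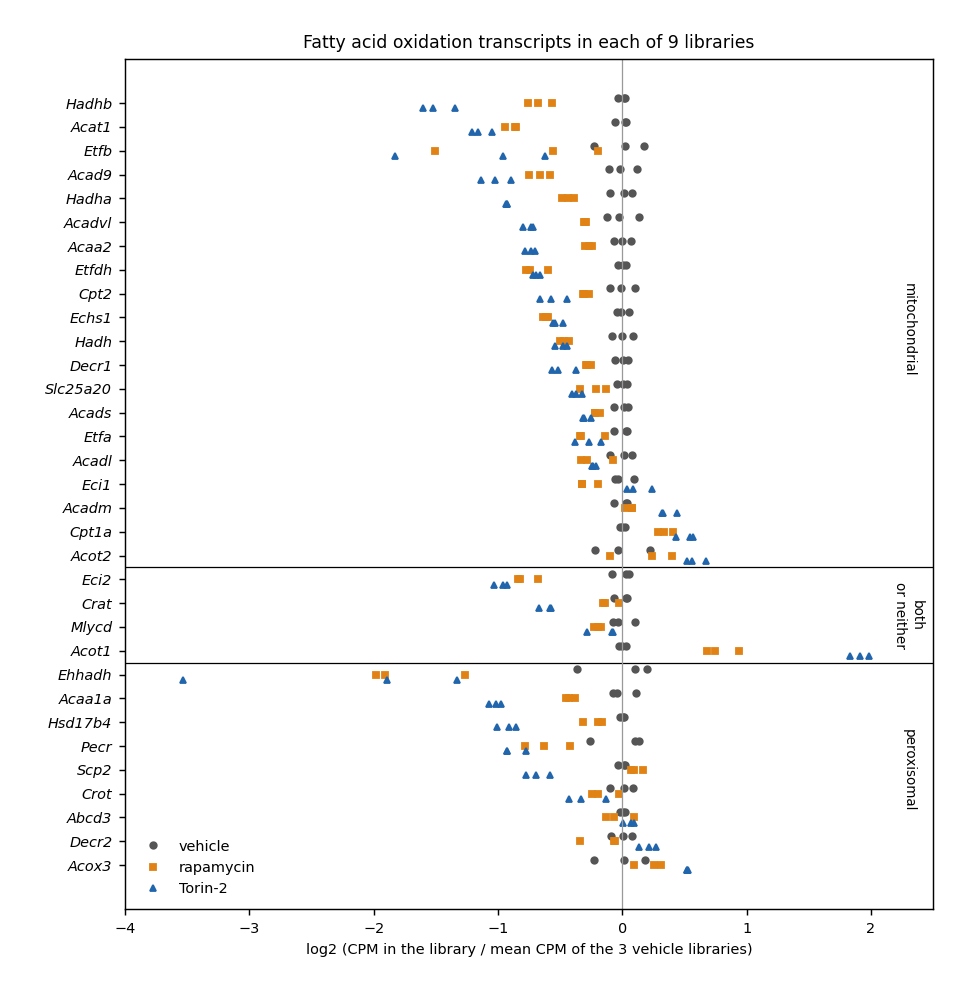
Each of the 33 genes in each of the 9 libraries, as the log2 ratio of the library's CPM to the mean of the 3 vehicle libraries, grouped by organelle and sorted by the change with Torin-2. Most Torin-2 triangles lie left of the vehicle circles, Acot1 lies farthest right (55.8 CPM with Torin-2 against 14.8 CPM with vehicle), and Ehhadh and Etfb, the genes with the fewest counts, are the most scattered.

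The carnitine shuttle split at its first step. Cpt1a, the outer membrane carnitine palmitoyltransferase that malonyl-CoA inhibits, stood at 217 ± 2.99 CPM with vehicle, 275 ± 12.2 CPM with rapamycin and 310.4 ± 16.4 CPM with Torin-2. Its lowest Torin-2 library (292 CPM) was above its highest rapamycin library (288 CPM), and the lowest of those (264 CPM) was above its highest vehicle library (220.3 CPM). The log2 fold change was 0.52 with Torin-2 (edgeR adjusted p = 5.38e-06) and 0.34 with rapamycin (edgeR adjusted p = 3.09e-04). Between the compounds it was 0.17 (edgeR adjusted p = 0.0216), a call that was lost without rapamycin replicate 2 or 3 or Torin-2 replicate 1 or 2 (edgeR adjusted p 0.0614 to 0.0948).

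Cpt1a (ENSMUSG00000024900) lies on the plus strand of chromosome 19 from 3322334 to 3385733 (GENCODE M21, GRCm38), and the bases just before its RefSeq start are shown because it is the shuttle gene that rose under both compounds. The sequence is from RefSeq's promoter table, GRCm38.p6 chr19:3323051-3323284, plus strand, with 16 bases between its end and the RefSeq start; it lies inside the GENCODE gene but outside its exons. Capitals mark the reverse complement of AGGTCA, the half-site that PPAR and other nuclear receptors bind, 94 to 89 bases before the start.
Cpt1a: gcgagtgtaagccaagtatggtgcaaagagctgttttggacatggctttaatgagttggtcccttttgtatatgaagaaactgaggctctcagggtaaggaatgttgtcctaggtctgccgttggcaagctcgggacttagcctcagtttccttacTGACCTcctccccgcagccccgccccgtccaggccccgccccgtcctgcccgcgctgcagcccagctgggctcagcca

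The later shuttle genes went the other way. Slc25a20, the carnitine-acylcarnitine carrier, fell from 70.8 ± 2.06 CPM with vehicle to 60.5 ± 4.47 CPM with rapamycin (log2 fold change -0.23, edgeR adjusted p = 0.0101) and 54.8 ± 1.51 CPM with Torin-2 (-0.37, edgeR adjusted p = 2.52e-04). Between the compounds its edgeR adjusted p was 0.0835, and 0.0471 with the replicate number as a block. It also passed without rapamycin replicate 3 (edgeR adjusted p = 0.0178). Cpt2, the inner transferase, fell from 35.1 ± 2.53 to 28.5 ± 0.49 CPM with rapamycin (-0.30) and to 23.9 ± 1.79 CPM with Torin-2 (-0.56). Between the compounds its log2 fold change was -0.26 (edgeR adjusted p = 0.0185), which was lost without Torin-2 replicate 2 or 3 (edgeR adjusted p 0.0511 and 0.0809).

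Malonyl-CoA decarboxylase, Mlycd, removes the inhibitor of Cpt1a, and was among the 2 genes nearest to no change. In replicates 1 to 3, the order used for every library value below, it stood at 19.4, 18.9 and 21.3 CPM with vehicle, 17.6, 17.0 and 17.3 CPM with rapamycin and 16.3, 18.9 and 18.7 CPM with Torin-2. Every vehicle library was above every treated one, with vehicle replicate 2 (18.88 CPM) next to Torin-2 replicate 2 (18.87 CPM), but neither change passed: the log2 fold change was -0.14 with Torin-2 (edgeR adjusted p = 0.165) and -0.20 with rapamycin (edgeR adjusted p = 0.0727).

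Of the 5 acyl-CoA dehydrogenases, which take the first step of each mitochondrial round, 4 fell with each compound, and the medium-chain enzyme did not. That is 80% lower, against 32.9% (Torin-2) and 26.2% (rapamycin) of all genes tested. Acadvl, for very long chains, stood at 111, 103 and 123 CPM with vehicle, 91.2, 91.7 and 90.9 CPM with rapamycin and 67.7, 64.6 and 68.2 CPM with Torin-2. Its 3 groups did not overlap, and the log2 fold change was -0.75 ± 0.065 (SE) with Torin-2 and -0.30 ± 0.065 with rapamycin. On chromosome 11 (70010183 to 70015411), 42.9% of its exon bases overlap Dvl2 on the other strand, and whether the counting used strand is not stated in the labels, so its level is uncertain to that extent.

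Acad9, a dehydrogenase better known as an assembly factor of respiratory complex I, had the largest fall of the 5. It stood at 30.9, 33.8 and 28.9 CPM with vehicle, 19.8, 20.9 and 18.6 CPM with rapamycin and 14.2, 16.7 and 15.4 CPM with Torin-2, again without overlap. Its log2 fold change was -1.02 with Torin-2 (edgeR adjusted p = 1.15e-06) and -0.66 with rapamycin (edgeR adjusted p = 8.86e-05).

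The short-chain enzyme Acads and the long-chain enzyme Acadl moved less. Acads went from 85.8 ± 3.4 CPM with vehicle to 74.5 ± 1.26 CPM with rapamycin (log2 fold change -0.20) and 70.01 ± 1.69 CPM with Torin-2 (-0.29). Acadl went from 243 ± 14.9 to 208 ± 20.1 CPM with rapamycin (-0.23, edgeR adjusted p = 0.0192) and 207 ± 2.49 CPM with Torin-2 (-0.23, edgeR adjusted p = 0.0123). The rapamycin call on Acadl did not hold without rapamycin replicate 1 or 2 or vehicle replicate 1 or 3 (edgeR adjusted p 0.0587 to 0.0824). Per kb of exon, merged over all annotated transcripts of a gene, Acadl was nevertheless the highest of the 33 genes, at 121 ± 7.45 CPM per kb with vehicle. Etfa came next at 56.9 ± 2.17 CPM per kb. Merged lengths, such as 8286 bases for Echs1 and 8730 for Hadha, can exceed those of the transcripts present, so this order depends on the length used.

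Acadm, for medium chains, was the dehydrogenase that rose: 43.5 ± 1.78 CPM with vehicle, 45.4 ± 1.0 CPM with rapamycin and 55.98 ± 2.61 CPM with Torin-2. Its Torin-2 libraries (54.4 to 59.0 CPM) were above all 6 others, whose highest was 46.03 CPM. Acadm changed by 0.36 on the log2 scale with Torin-2 (edgeR adjusted p = 1.89e-04), 0.06 with rapamycin (edgeR adjusted p = 0.409) and 0.30 between the compounds (edgeR adjusted p = 0.00142).

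Acadm (ENSMUSG00000062908) lies on the minus strand of chromosome 3 from 153922357 to 153944632, and its promoter is shown because its direction set it apart from the other dehydrogenases. The sequence is RefSeq's, GRCm38.p6 chr3:153944644-153944893, minus strand, and ends at the base before the RefSeq start. Capitals mark the reverse complement of AGGTCA, 249 to 244 bases before the start, and that of GCGCATGCG, the site of the nuclear respiratory factor NRF1, 159 to 151 bases before it.
Acadm: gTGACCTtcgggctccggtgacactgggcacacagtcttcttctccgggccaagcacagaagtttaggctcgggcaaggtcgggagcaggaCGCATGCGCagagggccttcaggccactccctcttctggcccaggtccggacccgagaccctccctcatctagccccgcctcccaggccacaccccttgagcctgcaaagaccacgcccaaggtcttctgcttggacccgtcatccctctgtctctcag

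The 6 genes that take the chain from hydration to thiolysis were lower with Torin-2 and with rapamycin without exception, with median log2 fold changes of -0.84 and -0.54. Of all genes tested, 32.9% (Torin-2) and 26.2% (rapamycin) were lower. The summed level of the 6 went from 732 ± 12.9 CPM with vehicle to 506 ± 5.47 CPM with rapamycin and 398 ± 12.0 CPM with Torin-2. Hadha and Hadhb are the subunits of the trifunctional protein that does all 3 of these steps on long chains at the inner membrane. They had the highest CPM of the 6 with vehicle and with rapamycin. With Torin-2 Hadha was still the highest (117 CPM), while Hadhb (57.3 CPM) was under Echs1 (95.9 CPM) and Hadh (59.3 CPM).

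Hadha stood at 225, 208 and 235 CPM with vehicle, 171, 159 and 165 CPM with rapamycin and 117, 117 and 117 CPM with Torin-2. Hadhb stood at 163, 162 and 157 CPM with vehicle, 95.1, 101 and 108 CPM with rapamycin and 53.0, 63.3 and 55.7 CPM with Torin-2. Neither gene overlapped between any groups, and Hadhb fell further. The log2 fold change of Hadhb was -1.49 ± 0.072 (SE) with Torin-2 and -0.66 ± 0.071 with rapamycin (edgeR adjusted p = 8.19e-09 and 1.53e-05), and that of Hadha was -0.93 ± 0.056 and -0.44 ± 0.056 (edgeR adjusted p = 4.63e-08 and 5.71e-05). Of Hadhb's stretches of 100 exon bases, 14.8% also occur in the gene models Gm13910 and Gm9108, whose reads the counting could have shared.

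The genes stand head to head on chromosome 5, Hadha (ENSMUSG00000025745) on the minus strand from 30118304 to 30155162 and Hadhb (ENSMUSG00000059447) on the plus strand from 30155248 to 30184593. Their RefSeq starts, at 30154980 and 30155253, have 272 bases between them. The 85 bases outside the GENCODE M21 exons of both are shown since they lie between genes that fell together, from RefSeq's promoter table, GRCm38.p6 chr5:30155163-30155247, plus strand, and hold none of the motifs searched.
Hadhb: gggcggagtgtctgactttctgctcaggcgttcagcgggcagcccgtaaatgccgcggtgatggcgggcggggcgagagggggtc

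The soluble enzymes of shorter chains fell as well. Echs1, the short-chain enoyl-CoA hydratase, stood at 143, 137 and 134 CPM with vehicle, 88.6, 91.2 and 89.9 CPM with rapamycin and 94.8, 99.2 and 93.8 CPM with Torin-2. Echs1 and Hadh were the 2 genes of the 6 that did not pass between the compounds. The Torin-2 libraries of Echs1 lay above the rapamycin ones, at a log2 difference of 0.09 that did not pass (edgeR adjusted p = 0.151). Hadh, the hydroxyacyl-CoA dehydrogenase of short and medium chains, had 83.1 ± 4.74 CPM with vehicle, 60.2 ± 1.58 CPM with rapamycin and 59.3 ± 1.89 CPM with Torin-2, a log2 difference of -0.02 between the compounds (edgeR adjusted p = 0.796).

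Acaa2, the mitochondrial ketoacyl-CoA thiolase, stood at 75.1, 68.6 and 71.5 CPM with vehicle, 58.1, 60.6 and 59.5 CPM with rapamycin and 43.2, 44.1 and 41.6 CPM with Torin-2. Acat1, the acetoacetyl-CoA thiolase that also serves ketone bodies and isoleucine, stood at 56.7, 56.4 and 53.4 CPM with vehicle, 30.6, 30.5 and 28.9 CPM with rapamycin and 24.0, 26.8 and 24.9 CPM with Torin-2. Both were free of overlap between all 3 groups. They differed in where the step came: Acat1 had a log2 fold change of -0.89 with rapamycin and -0.25 from rapamycin to Torin-2, while Acaa2 had -0.27 and -0.47.

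**Figure D2:**
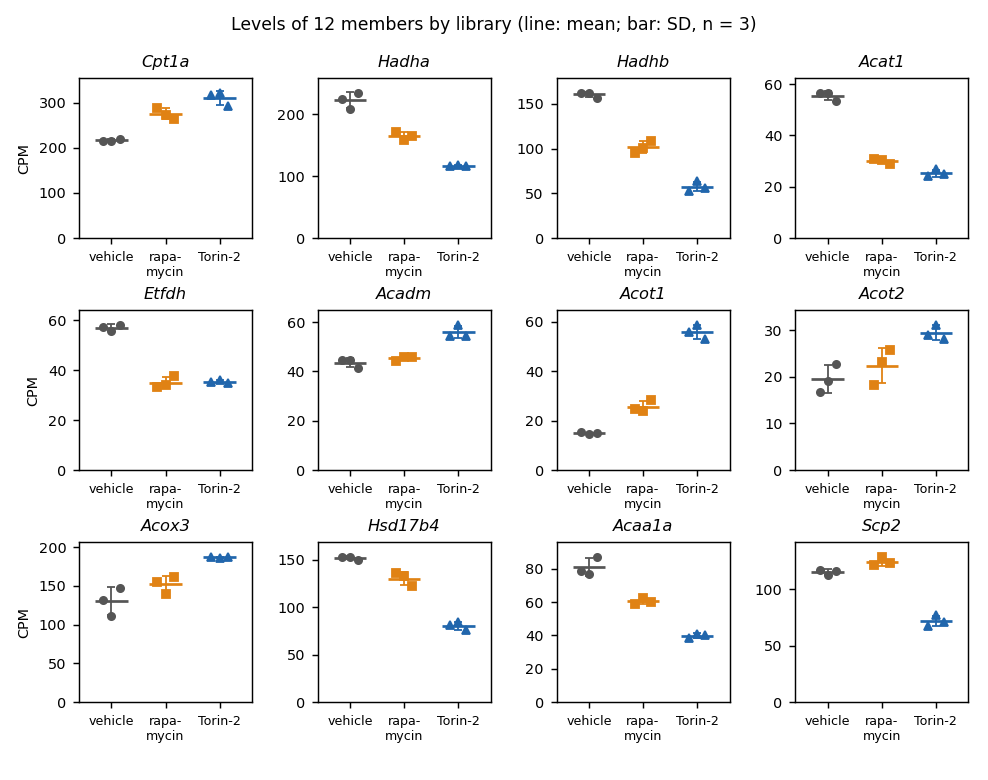
CPM of 12 of the genes in each library by treatment, with the mean (line) and SD (bar) of 3 libraries and each axis starting at 0. Cpt1a, Acadm, Acot1, Acot2 and Acox3 were highest with Torin-2, Hadha, Hadhb, Acat1, Hsd17b4 and Acaa1a fell stepwise from vehicle through rapamycin to Torin-2, Etfdh fell to one level with both, and Scp2 was low with Torin-2 alone.

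Unsaturated chains need their double bonds moved or reduced, a task of Eci1, Eci2 and Decr1 in mitochondria. Eci2, an isomerase found in both organelles, stood at 81.9, 74.5 and 80.7 CPM with vehicle, 44.8, 44.1 and 49.5 CPM with rapamycin and 41.7, 40.6 and 38.6 CPM with Torin-2. Both treated groups lay far under vehicle, at log2 fold changes of -0.78 with rapamycin and -0.98 with Torin-2 (edgeR adjusted p = 2.88e-06 and 1.15e-07). The difference between them, -0.20 (edgeR adjusted p = 0.0282), did not pass without rapamycin replicate 3 or Torin-2 replicate 2 or 3 (edgeR adjusted p 0.0566 to 0.108).

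Eci1, the mitochondrial isomerase, did not follow Eci2. It had 16.7 ± 0.963 CPM with vehicle, 13.7 ± 0.695 CPM with rapamycin and 18.2 ± 1.35 CPM with Torin-2, so that it was lower with rapamycin (-0.28, edgeR adjusted p = 0.0204) and did not pass with Torin-2 (0.12, edgeR adjusted p = 0.243). The rapamycin call was lost without rapamycin replicate 2 or 3 or vehicle replicate 3 (edgeR adjusted p 0.0569 to 0.0724). Torin-2 libraries were above rapamycin libraries by 0.41 (edgeR adjusted p = 0.00287). Decr1, the mitochondrial dienoyl-CoA reductase, fell from 40.6 ± 1.53 to 33.5 ± 0.439 CPM with rapamycin (-0.28) and 29.0 ± 2.03 CPM with Torin-2 (-0.48). Its difference between the compounds, -0.21 (edgeR adjusted p = 0.0265), was lost without any of rapamycin replicates 2 and 3 and Torin-2 replicates 1 and 3 (edgeR adjusted p 0.056 to 0.107).

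Electrons reach ubiquinone through Etfa, Etfb and Etfdh. Etfdh, the membrane oxidoreductase at the end of this path, stood at 57.3, 55.8 and 58.4 CPM with vehicle, 33.5, 34.1 and 37.7 CPM with rapamycin and 35.4, 36.2 and 34.8 CPM with Torin-2. The treated groups overlapped each other and lay well under vehicle, with log2 fold changes of -0.70 and -0.69 and a difference between the compounds of 0.01 (edgeR adjusted p = 0.883). Etfa, the alpha subunit of the flavoprotein, had 104 ± 3.97 CPM with vehicle, 86.7 ± 7.01 CPM with rapamycin and 86.5 ± 6.25 CPM with Torin-2, or -0.27 with each compound. None of the 3 genes of this step differed between Torin-2 and rapamycin at the threshold or at an unadjusted p under 0.05. Of all genes tested 48.2% were called in that comparison.

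Etfb, the beta subunit, was counted too rarely to read closely. It stood at 1.14 ± 0.158 CPM with vehicle, 0.723 ± 0.30 CPM with rapamycin and 0.548 ± 0.212 CPM with Torin-2, or 0.0109 of the CPM of Etfa with vehicle, although the subunits pair in the protein. GENCODE M21 places 58.2% of its exon bases inside Gm45233 on the same strand, a gene model with a mean count of 0. The part of this overlap in its low count was not tested. Its fall with Torin-2 (-1.02, edgeR adjusted p = 0.0376) was lost with DESeq2 (adjusted p = 0.0871) and without any of Torin-2 replicates 1 and 2, vehicle replicates 1 and 3 and rapamycin replicate 1 (edgeR adjusted p 0.0505 to 0.136).

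The acyl-CoA thioesterases free fatty acids from coenzyme A. Those of the set, Acot1 and Acot2, were its group with the largest rise. Other thioesterases tested, which are outside the set, did not rise with Torin-2. Acot4 fell from 2.321 CPM with vehicle to 1.156 CPM with Torin-2 (edgeR adjusted p = 0.0132). Acot8, Acot13 and Them4 did not pass in that comparison (edgeR adjusted p = 0.0846, 0.178 and 0.38). Acot1, the cytosolic enzyme, stood at 15.2, 14.5 and 14.8 CPM with vehicle, 24.8, 23.7 and 28.4 CPM with rapamycin and 55.8, 58.8 and 52.9 CPM with Torin-2. Each group cleared the one before it, by 3.76-fold in all from vehicle to Torin-2. The log2 fold change was 1.91 ± 0.081 (SE) with Torin-2, 0.79 ± 0.083 with rapamycin and 1.12 ± 0.079 between them (edgeR adjusted p = 3.15e-09, 1.38e-05 and 6.31e-07).

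Acot2, the mitochondrial enzyme encoded next to it, stood at 16.8, 19.1 and 22.8 CPM with vehicle, 18.3, 23.1 and 25.8 CPM with rapamycin and 28.9, 31.2 and 28.1 CPM with Torin-2. Vehicle and rapamycin overlapped, and Torin-2 lay above both. Acot2 changed by 0.59 on the log2 scale with Torin-2 (edgeR adjusted p = 0.00183), 0.20 with rapamycin (edgeR adjusted p = 0.237) and 0.39 between the compounds (edgeR adjusted p = 0.0283). The last was lost without rapamycin replicate 1 or 2 or Torin-2 replicate 1 or 2 (edgeR adjusted p 0.0549 to 0.108).

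Both genes lie on the plus strand of chromosome 12, Acot2 (ENSMUSG00000021226) from 83987861 to 83993873 and Acot1 (ENSMUSG00000072949) from 84009490 to 84018371. Their transcripts are alike in part: in a local alignment of a transcript of each from GENCODE M21, of 2272 bases for Acot1 and 2196 for Acot2, the best-matching stretch was identical at 1254 of 1337 positions (93.8%), and 12.4% of the 100-base stretches of Acot1 and 17.1% of those of Acot2 occur in another gene, so some reads could have been shared. The promoters are shown because these neighbouring genes rose by different amounts; aligned over the whole RefSeq windows, gaps included, they were identical at 45.7% of positions. Both are from GRCm38.p6, plus strand, at chr12:84009252-84009489, with 12 bases to the RefSeq start of Acot1, and chr12:83987611-83987860, ending at the base before that of Acot2. Neither holds any motif searched, so no base is in capitals.
Acot1: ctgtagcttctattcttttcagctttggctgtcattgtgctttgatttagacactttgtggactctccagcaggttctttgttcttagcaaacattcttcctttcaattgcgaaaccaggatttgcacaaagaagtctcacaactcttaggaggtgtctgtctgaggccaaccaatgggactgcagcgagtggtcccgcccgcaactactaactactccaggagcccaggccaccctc
Acot2: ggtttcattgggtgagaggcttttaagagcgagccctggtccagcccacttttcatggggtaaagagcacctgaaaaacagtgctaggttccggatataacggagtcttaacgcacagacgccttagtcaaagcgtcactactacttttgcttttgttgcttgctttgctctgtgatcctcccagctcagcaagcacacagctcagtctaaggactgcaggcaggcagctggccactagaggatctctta

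RefSeq's table held promoters, 250 bases before to 50 after the start, for 27 of the 33 genes in 28 windows. On either strand AGGTCA was present in 5 of the 28 (Acadm, Acadvl, Cpt1a, Echs1 and Scp2) and in 16.3% of 32851 promoters. GCGCATGCG was present in 2 (Acadm and Etfdh) and in 1.75% of all. The direct repeat DR1, bound by PPAR with RXR, was searched as exact AGGTCA half-sites. It was in 0 windows and in 13 of the 32851 promoters (0.0396%). A match so rare could hardly be met in 28 windows, so this count says nothing on repeats of looser sequence. TCAAGGTCA (the site of the estrogen-related receptors, which contains AGGTCA) was in 0 windows and 0.423% of all. CACGTG (the E-box core of TFEB and TFE3 sites) was in 0 and 7.15%. All motifs were searched as exact matches.

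Peroxisomes import fatty acyl-CoA through Abcd3, the membrane transporter also called PMP70, and it was the gene nearest to no change. It stood at 92.1, 91.2 and 89.6 CPM with vehicle, 87.0, 83.1 and 97.3 CPM with rapamycin and 96.9, 95.6 and 91.2 CPM with Torin-2, and all 3 groups overlapped. Its log2 fold change was 0.06 ± 0.063 (SE) with Torin-2 and -0.03 ± 0.063 with rapamycin (edgeR adjusted p = 0.461 and 0.72). Between the compounds, 0.09 (edgeR adjusted p = 0.292), it passed without rapamycin replicate 3 (edgeR adjusted p = 0.04).

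The 5 genes of the peroxisomal cycle split between its first step and the rest with Torin-2: the oxidase rose and the 4 others fell. Of all genes tested, 32.5% were higher and 32.9% lower with Torin-2. Acox3, an oxidase of branched chains, had 130.3 ± 18.1 CPM with vehicle, 152 ± 11.4 CPM with rapamycin and 187 ± 0.823 CPM with Torin-2. Its lowest Torin-2 library (186 CPM) was above its highest rapamycin library (161 CPM), while vehicle and rapamycin overlapped. The log2 fold change was 0.52 with Torin-2 (edgeR adjusted p = 2.62e-04) and 0.22 with rapamycin (edgeR adjusted p = 0.0578).

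That rapamycin value for Acox3 lay at the threshold. With the replicate number as a block the edgeR adjusted p was 0.00933, with DESeq2 it was 0.043, and without rapamycin replicate 2 or vehicle replicate 3 edgeR gave 0.0318 and 0.00694. Between the compounds Acox3 differed by 0.30 (edgeR adjusted p = 0.0153), or 0.24 without rapamycin replicate 2 (edgeR adjusted p = 0.0683).

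Hsd17b4, the bifunctional enzyme of the D route, which hydrates and dehydrogenates very long and branched chains, stood at 153, 154 and 150.2 CPM with vehicle, 136, 133 and 122 CPM with rapamycin and 80.8, 84.2 and 75.7 CPM with Torin-2. The groups did not overlap, and most of the drop came with Torin-2: the log2 fold change was -0.93 with Torin-2, -0.23 with rapamycin and -0.70 between them (edgeR adjusted p = 7.11e-08, 0.00693 and 2.62e-06).

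Ehhadh, the bifunctional enzyme of the L route, had the largest fall of the 33 genes on few reads. It stood at 4.97, 4.66 and 3.37 CPM with vehicle, 1.09, 1.8 and 1.15 CPM with rapamycin and 0.374, 1.17 and 1.73 CPM with Torin-2. Both treated groups were under every vehicle library and overlapped each other. The log2 fold change was -1.95 ± 0.389 (SE) with Torin-2 and -1.67 ± 0.384 with rapamycin (edgeR adjusted p = 8.25e-04 and 0.00348). Per kb of exon it stood far under Hsd17b4, at 1.45 ± 0.284 against 44.7 ± 0.524 CPM per kb with vehicle.

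Acaa1a, the peroxisomal thiolase of straight chains, stood at 78.6, 76.9 and 87.3 CPM with vehicle, 59.1, 62.3 and 60.2 CPM with rapamycin and 38.5, 41.1 and 40.1 CPM with Torin-2. All 3 groups were apart, at log2 fold changes of -1.02 with Torin-2 and -0.42 with rapamycin (edgeR adjusted p = 5.16e-08 and 1.61e-04). Its exon sequence is shared in part: 9.72% of its 100-base stretches occur in its copy Acaa1b or in Myd88, which overlaps it.

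Scp2, which encodes the thiolase of branched chains and, from an inner start, the sterol carrier protein, was low with Torin-2 and not with rapamycin. It stood at 117, 112 and 116 CPM with vehicle, 121, 129 and 123 CPM with rapamycin and 67.3, 76.8 and 70.9 CPM with Torin-2. Rapamycin libraries lay above the vehicle ones without passing (0.11, edgeR adjusted p = 0.134), and Torin-2 libraries lay under both, at -0.68 against vehicle and -0.79 against rapamycin (edgeR adjusted p = 9.08e-07 and 1.05e-06). Of its 100-base stretches 21.8% occur also in the pseudogene Scp2-ps2 or in Gm47162.

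The reductases of the peroxisome went opposite ways with Torin-2. Pecr, the trans-enoyl-CoA reductase, stood at 5.57, 5.44 and 4.24 CPM with vehicle, 3.28, 3.79 and 2.96 CPM with rapamycin and 2.67, 2.98 and 2.67 CPM with Torin-2. Vehicle lay above both treated groups, which overlapped, at -0.87 with Torin-2 and -0.60 with rapamycin (edgeR adjusted p = 8.84e-04 and 0.0127). The rapamycin call did not hold without vehicle replicate 1 (edgeR adjusted p = 0.0555). Decr2, the dienoyl-CoA reductase, had 40.2 ± 2.31 CPM with vehicle, 36.3 ± 3.92 CPM with rapamycin and 46.3 ± 2.21 CPM with Torin-2, a rise of 0.21 on the log2 scale (edgeR adjusted p = 0.0451). That rise was lost without any of vehicle replicates 1 and 2, Torin-2 replicates 2 and 3 and rapamycin replicate 2 (edgeR adjusted p 0.0503 to 0.168) and with DESeq2 (adjusted p = 0.0573). The difference between the compounds, was 0.35 (edgeR adjusted p = 0.00451).

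Carnitine acyltransferases make the esters in which peroxisomal products leave. Crat, for acetyl and other short groups in both organelles, stood at 111, 104 and 112 CPM with vehicle, 107, 97.8 and 99.0 CPM with rapamycin and 72.9, 73.2 and 68.2 CPM with Torin-2. Vehicle and rapamycin overlapped (-0.11, edgeR adjusted p = 0.15) and Torin-2 lay under both, by -0.61 and -0.50 (edgeR adjusted p = 2.17e-06 and 2.79e-05). Crot, for medium chains, had 39.6 ± 2.47, 35.6 ± 2.86 and 32.3 ± 3.5 CPM, and passed with Torin-2 alone (-0.29, edgeR adjusted p = 0.0134), though not without Torin-2 replicate 1 (edgeR adjusted p = 0.0667).

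**Figure D3:**
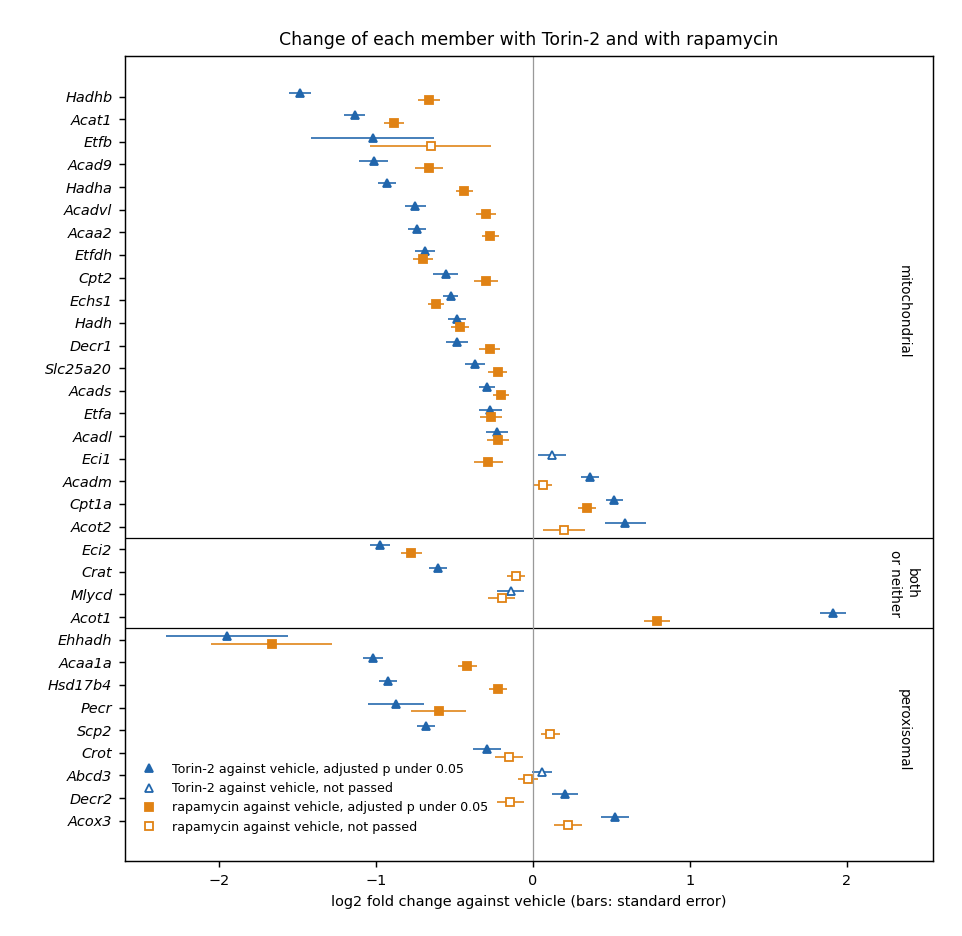
Log2 fold change against vehicle of each of the 33 genes with Torin-2 (triangles) and rapamycin (squares), with standard errors; filled symbols passed at an adjusted p under 0.05 and open ones did not. Symbols lie close together for Etfdh, Echs1, Hadh, Etfa and Acadl, and far apart for Scp2, Hsd17b4, Hadhb, Acot1 and Crat.

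Set side by side, genes of both organelles were mostly lower with Torin-2, and with rapamycin the mitochondrial genes were mostly lower while 5 of 9 peroxisomal genes did not pass. With Torin-2, 16 of 20 mitochondrial genes were lower, 3 were higher and 1 did not pass, and 6 of 9 peroxisomal genes were lower, 2 were higher and 1 did not pass. The median log2 fold changes were -0.51 and -0.68. With rapamycin, 16 of 20 mitochondrial genes were lower, 1 was higher and 3 did not pass, against 4 of 9 peroxisomal genes lower, 0 higher and 5 not passed, with medians of -0.29 and -0.15. The peroxisomal count depends on the scaling: with library totals alone, which also call Crot and Decr2, 6 of 9 were lower with rapamycin. At an unadjusted p under 0.05 in edgeR's fit, and with DESeq2, 1 peroxisomal gene (Acox3) was higher with rapamycin. As a share, 80% of the mitochondrial genes were lower with either compound, and 66.7% and 44.4% of the peroxisomal genes were lower with Torin-2 and rapamycin. Of all genes tested, 32.9% and 26.2% were lower. The difference between the organelles was not tested, since genes are not replicates of an organelle.

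Between the compounds, 8 of 20 mitochondrial genes were lower with Torin-2 and 4 were higher, and 3 of 9 peroxisomal genes (Hsd17b4, Acaa1a and Scp2) were lower and 2 (Acox3 and Decr2) were higher. As shares, 40% (mitochondrial) and 33.3% (peroxisomal) were lower, against 24.1% of all genes tested. Higher ones were 20% and 22.2%, a little under the 24.2% of all genes. The medians were -0.12 and -0.27, and each moved when 1 library was left out: without rapamycin replicate 2 both were -0.07, and without Torin-2 replicate 1 the peroxisomal one was -0.08. Among the 4 genes of both organelles or neither, Eci2 and Crat were lower, Acot1 was higher and Mlycd did not pass.

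Summed levels weigh abundant genes most. The 20 mitochondrial genes summed to 1827, 1763 and 1841 CPM with vehicle, 1495, 1482 and 1526 CPM with rapamycin and 1399, 1439 and 1366 CPM with Torin-2. No group overlapped another, and the sums were 0.829 and 0.774 of vehicle. The 9 peroxisomal genes summed to 660.2, 638 and 678 CPM with vehicle, 628, 629 and 641 CPM with rapamycin and 548, 571 and 549 CPM with Torin-2. Here vehicle and rapamycin overlapped (0.961 of vehicle) and Torin-2 lay under both (0.844 of vehicle).

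The peroxisomal sum was 0.364 ± 0.00389 of the mitochondrial sum with vehicle, 0.421 ± 0.00268 with rapamycin and 0.397 ± 0.00525 with Torin-2, without overlap. The order turned on Acox3, the abundant peroxisomal gene that rose: leaving it out gave 0.292 ± 0.0056 with vehicle, 0.320 ± 0.00895 with rapamycin and 0.263 ± 0.0053 with Torin-2, so that Torin-2 became the lowest. Leaving out Cpt1a, the abundant mitochondrial gene that rose, gave 0.413, 0.516 and 0.510. Per kb of merged exon, the peroxisomal genes summed to 148 ± 2.05, 137 ± 2.14 and 109 ± 3.51 CPM per kb in the same order. The mitochondrial genes summed to 512 ± 17.1, 427 ± 13.2 and 399.7 ± 8.27 CPM per kb.

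**Figure D4:**
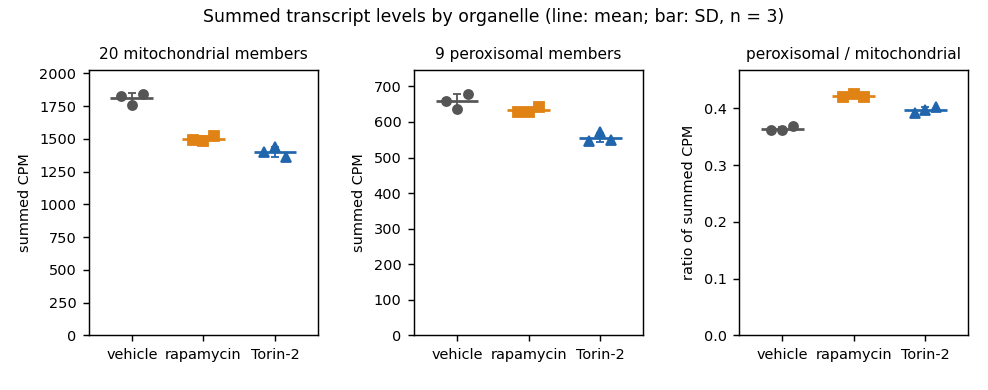
Summed CPM of the 20 mitochondrial genes (left) and the 9 peroxisomal genes (middle) and the ratio of the sums (right) in each library, with means (lines) and SD (bars) of 3 libraries and axes from 0. The mitochondrial sum drops from 1811 to 1501 CPM with rapamycin and 1402 CPM with Torin-2, the peroxisomal sum stands at 659, 633 and 556 CPM, and the ratio is highest with rapamycin.

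Other genes of oxidation and of fatty acid activation, 32 tested of 40 listed, were also lower more often than higher. With Torin-2, 17 were lower, 6 were higher and 9 did not pass (median log2 fold change -0.31), and with rapamycin 17 were lower, 5 were higher and 10 did not pass (-0.28). Lower genes made up 53.1% of those tested with either compound, against 32.9% (Torin-2) and 26.2% (rapamycin) of all genes. Between the compounds 10 were lower with Torin-2 and 8 were higher (median 0.00). These are 31.2% and 25%, against 24.1% and 24.2% of all genes. Ivd, the isovaleryl-CoA dehydrogenase of leucine breakdown, fell by 1.45 on the log2 scale with Torin-2, Pcca, a subunit of propionyl-CoA carboxylase, by 1.13 and Acad11, a long-chain dehydrogenase, by 1.08. The long-chain transporter Slc27a1 rose by 1.05 with Torin-2 and 0.75 with rapamycin, and the peroxisomal cofactor carrier Slc25a17 by 0.62 and 0.38.

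Regulators of the pathway were higher more often than lower. Of 21 tested of 24 listed, 12 were higher with Torin-2, 4 were lower and 5 did not pass, with a median of 0.57, and with rapamycin 11 were higher, 2 were lower and 8 did not pass (0.36). Higher genes were 57.1% (Torin-2) and 52.4% (rapamycin) of those tested, against 32.5% and 24.6% of all genes. Prkab1, a subunit of the AMP-activated kinase, rose by 1.95 with Torin-2, the mitochondrial deacetylase Sirt3 by 1.58 and the retinoid X receptor Rxrb by 1.42. Acaca, the acetyl-CoA carboxylase that makes malonyl-CoA, fell by 1.19 with Torin-2 and 0.26 with rapamycin (edgeR adjusted p = 1.98e-07 and 0.0212), and differed by -0.93 between the compounds (edgeR adjusted p = 4.91e-06). With rapamycin the lysosomal regulators Tfeb and Tfe3 rose by 0.80 each. Ppara, Ppargc1a and Acacb had too few counts to be tested.

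Genes that build the organelles went in both directions. Of 24 peroxisome genes, 7 were higher with Torin-2, 6 were lower and 11 did not pass (median 0.01), and with rapamycin 4 were higher, 9 were lower and 11 did not pass (-0.13). As shares, 29.2% were higher and 25% lower with Torin-2, under the 32.5% and 32.9% of all genes tested. With rapamycin 16.7% were higher and 37.5% lower, against 24.6% and 26.2% of all genes. The import receptor Pex5 rose by 0.71 with Torin-2 and the import factor Pex13 by 0.65. Pex11a and Pex11g, of the family that divides peroxisomes, fell by 0.88 and 1.00. Of 20 genes of mitochondrial content and dynamics, 11 were lower and 6 were higher with Torin-2 (median -0.29), and 11 were lower and 1 was higher with rapamycin (-0.17). Lower genes were 55% with either compound, against 32.9% (Torin-2) and 26.2% (rapamycin) of all genes. Higher ones were 30% and 5%, against 32.5% and 24.6%. Timm23 and Tomm40, channels of protein import, fell by 1.34 and 1.03 with Torin-2, and the mitochondrial DNA helicase Twnk rose by 1.30.

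**Figure D5:**
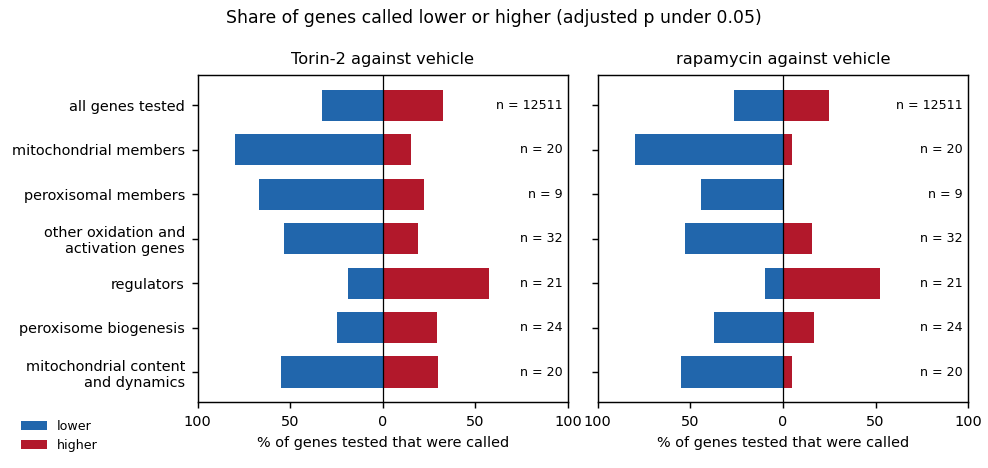
Share of genes called lower (left of 0) or higher (right) at an adjusted p under 0.05 with Torin-2 and with rapamycin, for all 12511 genes tested and for each list, with the number tested. Mitochondrial genes of the cycle were lower in 80% of cases with either compound against 32.9% and 26.2% of all genes, while 57.1% and 52.4% of the regulators were higher.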

How the data were processed

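RNA of 9 macrophage cultures was sequenced in paired-end reads of 100 bp (NuGEN Universal Plus mRNA-seq, per the labels). What the authors deposited is a table of unnormalized whole-number counts, with genes in rows and 9 samples in columns. Per the submitters' processing notes, bcl2fastq, FastQC and STAR 2.5.2a were run, with mm10 and GRCm38.p6 named as builds. For the counting tool, strand and annotation release, nothing is given in the sources used.

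The genes of the set, the other lists, the tests and the alternatives were chosen with earlier results of these data known. All members could be named. Values in every library are given for those with a mean of at least 1 CPM that passed with a change of at least 1.5-fold, and for the 2 nearest to no change. Other lists name at most 3 risers and 3 fallers per comparison with a mean of at least 1 CPM, of which a few are given. Apart from these, the other thioesterases tested (Acot4, Acot8, Acot13 and Them4) are named beside Acot1 and Acot2.

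Counts were fitted in R 4.3.3 with edgeR 4.0.16 (limma 3.58.1, DESeq2 1.42.0 as alternatives). Genes were kept by filterByExpr, which left 12511, and scaled by TMM (factors 0.955 to 1.05). All 9 libraries entered a single quasi-likelihood fit by group. It left out the pairing of replicate numbers described below, and a fit with the replicate number as a block was an alternative. The 3 contrasts were tested 2-sided, and p-values were adjusted by Benjamini-Hochberg over all genes tested. The common biological coefficient of variation was 9.96%. The script was tested on simulated data. No spike-in was used, so changes are relative to other genes, and low-count genes are measured least well. No replicate pair agreed within counting noise (chi-square per gene 4.62 to 54.0). Of 53342 identifiers, 53237 were in GENCODE M21, which gave positions and exon lengths, merged over all transcripts of a gene. Promoters are RefSeq's. Replicate numbers pair the libraries: deviations of log2(CPM + 0.5) from group means correlated at 0.19 to 0.513 in 9 same-numbered pairs and -0.387 to 0.157 in 18 others, and in 18 of 18 comparisons of a library with another group it correlated best with its own number.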

Additional observations from a re-analysis of the deposited data

How the results depend on the processing

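Calls of single genes were compared over 627 values per comparison under the alternatives. They held for 612 in Torin-2 against vehicle, 605 in rapamycin against vehicle and 593 in Torin-2 against rapamycin. A change of sign was counted as held where the gene passed in neither setting. Abcd3 in rapamycin against vehicle is such a case (-0.03, and 0.02 without rapamycin replicate 2). With those set aside there were 0 reversals in each comparison. Of the 33 genes, 27, 20 and 13 were called in all settings. The genes called in all numbered 7511 to 8713, 5457 to 7003 and 5168 to 6831 over the alternatives. With the replicate block, 1 peroxisomal gene (Acox3) was higher with rapamycin and Slc25a20 differed between the compounds; it changed no other call of the 33.

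For Torin-2 against vehicle, the count of higher peroxisomal genes was 1 with DESeq2, with library totals alone and without replicate 3 of every group. Leaving out 1 library gave medians of -0.553 to -0.485 (mitochondrial) and -0.742 to -0.637 (peroxisomal) and 1 to 2 higher peroxisomal genes. For rapamycin against vehicle, library totals alone gave medians of -0.386 (mitochondrial) and -0.248 (peroxisomal). There, 1 higher peroxisomal gene was found with DESeq2, with no filter on low counts and without replicate 3 of every group. Leaving out 1 library gave medians of -0.33 to -0.265 and -0.219 to -0.108 and 0 to 1 higher peroxisomal genes.

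For Torin-2 against rapamycin, library totals alone gave 5 lower mitochondrial genes and medians of -0.042 (mitochondrial) and -0.199 (peroxisomal). Without replicate 3 of every group the peroxisomal median was -0.332, and with Eci2, Crat and Mlycd counted as peroxisomal 5 were lower. Leaving out 1 library gave 2 to 4 higher mitochondrial and 1 to 3 higher peroxisomal genes and medians of -0.147 to -0.068 and -0.358 to -0.074. The cause of these shifts was not tested.

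With library totals alone Crat, Crot, Decr2 and Mlycd were also called lower with rapamycin (adjusted p 0.01 to 0.0431), Echs1 was called higher with Torin-2 than with rapamycin (adjusted p = 0.0207), and Acat1, Cpt2, Decr1 and Eci2 lost that comparison (adjusted p 0.0564 to 0.147). Depth limits Etfb, Ehhadh and Pecr most.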

Other observations

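Partners within complexes and families did not keep one ratio. Hadhb and Hadha, which form one enzyme complex, had a ratio of CPM (Hadhb over Hadha) of 0.722 ± 0.0555 with vehicle, 0.616 ± 0.0524 with rapamycin and 0.49 ± 0.0446 with Torin-2 (SD, n = 3). All Torin-2 libraries (0.453 to 0.54) were under the others, and the highest rapamycin library (0.658) and the lowest vehicle library (0.667) nearly met. Acot1 over Acot2 went from 0.77 ± 0.128 with vehicle to 1.16 ± 0.174 with rapamycin and 1.9 ± 0.0286 with Torin-2, without overlap between the groups.

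Genes that use acetyl-CoA or ketone bodies, 6 tested of 8 listed, were lower in 5 cases and higher in 0 with Torin-2 (0 of 6 were higher at any p, since all log2 fold changes were negative), and lower in 4 and higher in 0 with rapamycin. Lower genes were 83.3% (Torin-2) and 66.7% (rapamycin) of the 6, against 32.9% and 26.2% of all genes. Acss1, the mitochondrial acetyl-CoA synthetase, fell by 1.20 on the log2 scale with Torin-2 and 1.48 with rapamycin. Oxct1, the transferase that activates acetoacetate, fell by 0.59 and 0.96. Both were higher with Torin-2 than with rapamycin, by 0.28 and 0.37 (edgeR adjusted p = 0.0354 and 7.24e-04). Slc25a1, the citrate carrier, fell by 0.59 with Torin-2 and 0.32 with rapamycin.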
